A study of Mus musculus with 2 samples.

Results

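The 38 genes described here encode enzymes and relatives of enzymes that move a methyl group from S-adenosylmethionine (SAM) to lysine or arginine in proteins, chiefly in histones. They were taken by symbol from a fixed list of lysine and arginine methyltransferases outside the PRC2 complex, and all 38 were found among the 28839 genes for which FPKM (fragments per kilobase of exon scaled to the size of the library) were deposited. RNA-seq was performed on the mouse embryonic stem cell (mESC) line Sv129, grown on DMEM with 15% fetal bovine serum and leukemia inhibitory factor, with folate at 4 mg/L (FA4) or at 0 mg/L (FA0). Cells of one thawed stock were split at random into both media, and how long they grew there is not stated. Each condition has 1 library, so the differences below could not be checked against replicates and carry no p-value.

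Folate carries the one-carbon units that remethylate homocysteine to methionine, from which SAM is made, and the question here is how mESCs express the enzymes that spend SAM on histones when folate is left out. The position of the methylated lysine matters to what the mark is known for. Methylation of lysine 4 of histone H3 (H3K4) marks promoters and enhancers, that of H3K9 marks silent chromatin, that of H3K36 and H3K79 follows transcribed gene bodies, and methylated arginine occurs in histones and in many RNA-binding proteins. Most of the lysine enzymes carry a catalytic SET domain or its relative, the PR domain, while DOT1L and the arginine enzymes use the fold of a different methyltransferase family.

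A pseudocount of 1 was added to every FPKM, and the change of a gene is the log2 ratio of FA0 to FA4 after that, so that a positive change is a higher level without folate. Counts of genes past a fold limit use this change. The ratio or fold given for a single gene is the plain ratio of FPKM without the pseudocount, with a 95% counting interval from the reads behind them, which covers counting error only and not the spread between cultures. Reads per gene were recovered from FPKM and exon length and summed to 19534460 in FA4 and 18367795 in FA0. A gene counted as tested when its FPKM reached 1 in either library, which 14345 genes did, all 38 methyltransferase genes among them. All 8 pluripotent cell markers that were looked up were expressed in both libraries. Their FPKM summed to 4906 in FA4 and to 3925 in FA0. Of the 8, 7 were lower in FA0 beyond counting error, where 25.9% of all tested genes were, and Tfcp2l1 was 1.75-fold higher. Of the 7 fibroblast markers found, the collagen genes, Lum and Postn did not reach an FPKM of 1 in either library, while Thy1 had 4.21 and 4.53 and Pdgfrb 2.02 and 1.86, and the sum of all 7 was 6.48 in FA4 and 6.80 in FA0. The summed FPKM of 6 primitive endoderm markers was 6.31 in FA4 and 3.33 in FA0, and that of 6 neural markers was 45.7 in FA4 and 43.2 in FA0. The part of these cell types in the values below was not tested, and in bulk RNA fewer cells of a type and less RNA per cell cannot be told apart.

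The clearest differences were among the 6 genes grouped here as H3K4 methyltransferases, and they were not shared by all 6. Setd7, whose product also monomethylates H3K4, was placed with the other SETD proteins and was 1.42-fold lower in FA0. Kmt2d was 2.55-fold higher in FA0, Kmt2b and Setd1b were 2.00-fold and 1.99-fold higher, and Kmt2c was level, meaning here that its counting interval included equal levels. Among the H3K9 enzymes Ehmt2 and Setdb1 were higher and Suv39h1 was lower. Most of the arginine methyltransferases, of the SMYD proteins and of the other SETD proteins were level or lower, by up to 1.42-fold. In all, 1 of the 38 genes had a change of at least 2-fold upwards, where 2.99% of all tested genes did, and 0 of 38 had one of at least 2-fold downwards, where 1.32% did. At 1.5-fold, 4 of 38 genes were higher (Kmt2d, Kmt2b, Ehmt2 and Setd1b; 10.2% of all tested genes) and 0 were lower (4.5% of all tested genes). By the plain ratio, 7 genes reached 1.5 (15.9% of all tested genes), with Kmt2a, Setd1a and Setdb1 added, and 2 reached 2, Kmt2d and Kmt2b (7.31%). The counting interval lay above equal levels for 17 genes (34.4% of all tested genes) and below them for 13 (25.9%), and it included equal levels for 8. At the fold limits the share of methyltransferase genes was thus near that of all genes, and the median change of the 38 genes was 0.06 beside 0.05 for all tested genes. The groups by role differed in direction, with a median change of 0.62 for H3K4, 0.26 for H3K9 and 0.30 for H3K36 and H3K79, against -0.16 for the other SETD proteins with Kmt2e, -0.27 for the SMYD proteins and -0.11 for the arginine methyltransferases. Each of these medians kept its sign under all the alternatives run, but not its size. The H3K4 median was 0.30 once a trend on exon length and GC content was removed, the H3K36 and H3K79 median was 0.16 without a trend on length, and the arginine median was -0.03 after rescaling to TPM.

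**Figure D1:**
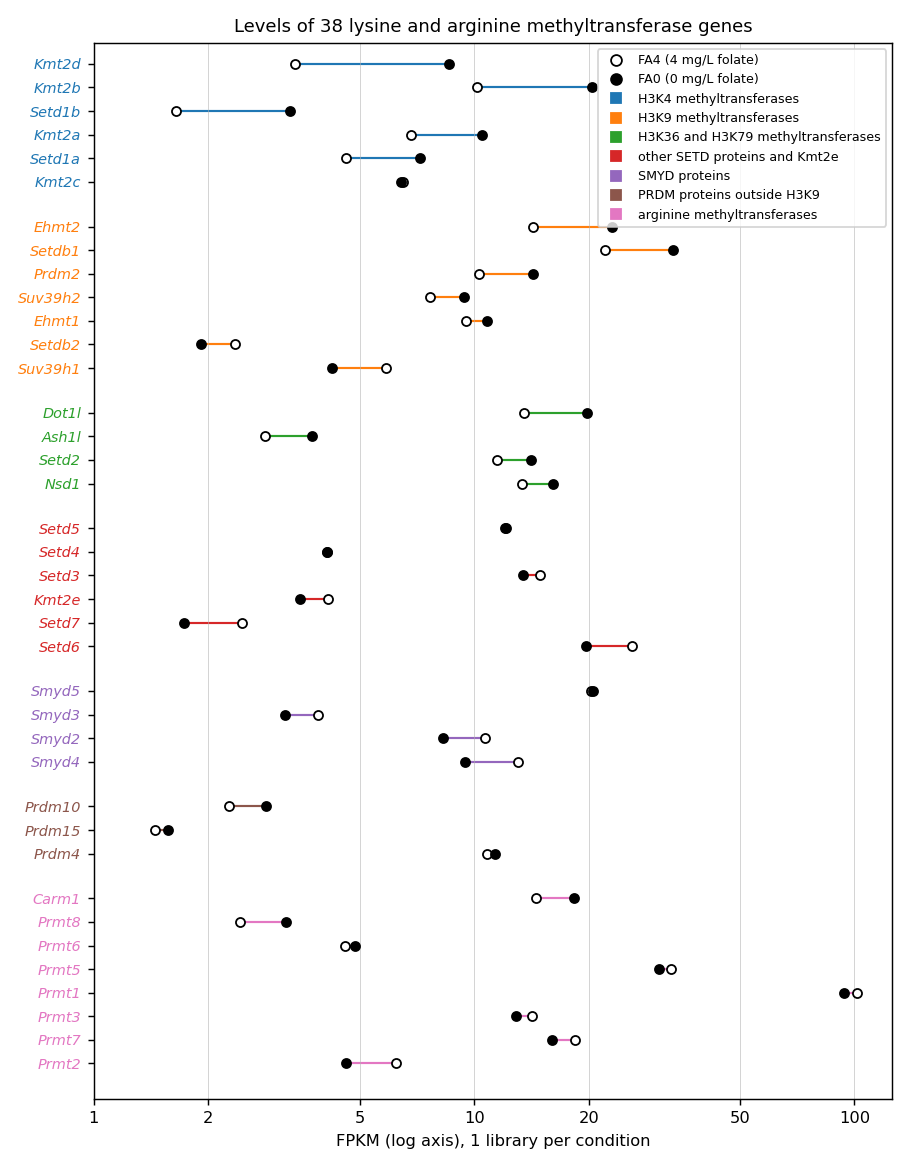
FPKM (horizontal log axis) of each of the 38 genes in the FA4 library (open circle) and the FA0 library (filled circle), grouped by role and coloured by group, with the most positive change first within a group. Kmt2d goes from 3.37 in FA4 to 8.59 in FA0 and passes Kmt2c, which stays at 6.49 and 6.41, while Prmt1, at 102 and 94.1, is the most highly expressed of all.

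Levels spread widely within the family. Ordered by the mean FPKM of both libraries, Prmt1 was the highest and Prmt5 the next, and both encode the main arginine methyltransferases of mammalian cells. Setdb1, Setd6 and Smyd5 followed in this order, although in FA0 alone Ehmt2, at 23.0, lay above Setd6 and Smyd5. At the other end of the order by mean were Setd1b, Setdb2, Setd7 and Prdm15, with Prdm10 and Prmt8 close above them. The summed FPKM of the 6 H3K4 enzymes was 33.1 in FA4 and 56.4 in FA0, that of the 7 H3K9 enzymes was 72.1 and 97.0, and that of the 8 arginine methyltransferases was 195 and 184.

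The 6 genes of this group encode the catalytic subunits of the H3K4 methyltransferase complexes called COMPASS. KMT2A and KMT2B act at promoters of developmental genes, KMT2C and KMT2D place H3K4 monomethylation at enhancers, and SETD1A and SETD1B make most of the H3K4 trimethylation at active promoters. Kmt2d (chromosome 15, 98831669 to 98871204 on the minus strand, mm10) stood at 3.37 FPKM in FA4 and at 8.59 in FA0, from 1264 and 3032 reads. Its ratio of 2.55 (2.39 to 2.72) was the highest of the 38 genes, with a change of 1.13. Kmt2c (chromosome 5, 25271798 to 25498783 on the minus strand), its closest paralogue, was at 6.49 FPKM in FA4 and at 6.41 in FA0, from 2477 and 2302 reads. Its ratio was 0.987 (0.932 to 1.05), an interval that includes equal levels. The FPKM of Kmt2d was 0.520 times that of Kmt2c in FA4 and 1.34 times that of Kmt2c in FA0, so the order of the enhancer pair was the opposite between the libraries.

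Kmt2b (chromosome 7, 30568858 to 30588726 on the minus strand) was measured at 10.2 FPKM in FA4 against 20.4 in FA0, a ratio of 2.00 (1.89 to 2.12). It was the most highly expressed H3K4 enzyme in both libraries. Kmt2a, the gene of the founding MLL protein, stood at 6.81 FPKM in FA4 and at 10.5 in FA0, a ratio of 1.54 (1.45 to 1.63). Setd1b (chromosome 5, 123142193 to 123168629 on the plus strand) had the lowest level of the group, at 1.65 FPKM in FA4 and 3.29 in FA0, and a ratio of 1.99 (1.76 to 2.27). Setd1a, which mouse embryonic stem cells need to proliferate, was at 4.61 FPKM in FA4 and at 7.22 in FA0, a ratio of 1.57 (1.41 to 1.74). Of its exon bases 52.3% overlap other annotated transcripts (9430064I24Rik on the opposite strand, with 6 reads in each library, and Gm49388 on the same strand), and the assignment of reads in shared bases is not stated. The change of Kmt2a (0.55) and of Setd1a (0.55) lay just under the 1.5-fold limit of 0.58 with the pseudocount, although their plain ratios passed 1.5. Of the 6 genes of this group, 5 were therefore higher in FA0 beyond counting error, where 34.4% of all tested genes were. Kmt2c was the exception among these 6.

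**Figure D2:**
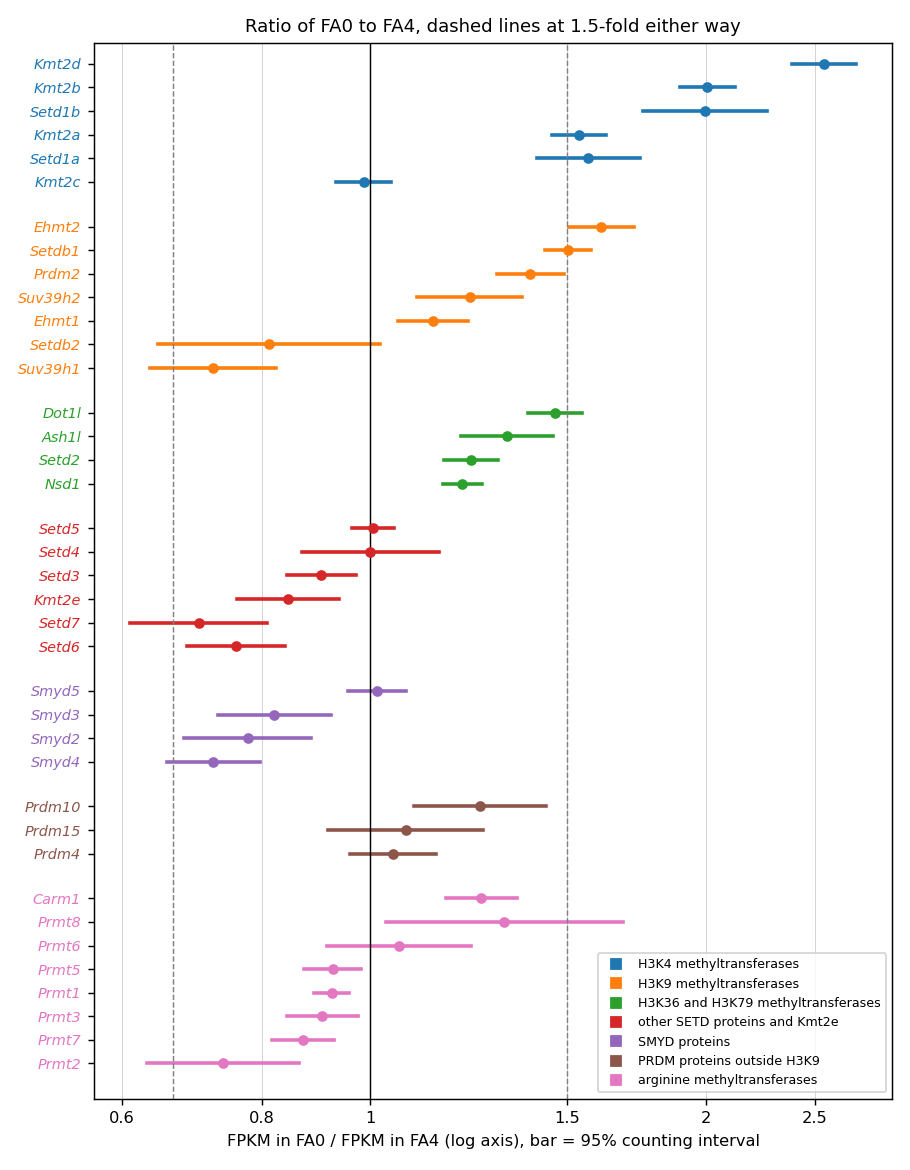
Ratio of FPKM in FA0 to FPKM in FA4 (horizontal log axis) for each gene, with its 95% counting interval as a bar, coloured by role. The solid line marks equal levels and the dashed lines a ratio of 1.5 either way, and the plain ratio carries no pseudocount. The genes of the H3K4 group other than Kmt2c sit at 1.54 or more and Kmt2c at 0.987. No bar of a SMYD protein or of the other SETD proteins lies wholly above equal levels.

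Kmt2c and Kmt2d are shown by sequence because these close relatives lay far apart, by 1.15 on the log2 scale of the change. Both proteins end in the SET domain and the short post-SET segment behind it. The last 150 coding bases of each, stop codon included, were read from GENCODE M21 transcripts (GRCm38, minus strand; chr5:25273666-25275684 across exons 58 and 59 of 59 for Kmt2c, chr15:98834500-98834772 across exons 54 and 55 of 55 for Kmt2d). Capitals mark a G or C at the last position of a codon.
Kmt2c end: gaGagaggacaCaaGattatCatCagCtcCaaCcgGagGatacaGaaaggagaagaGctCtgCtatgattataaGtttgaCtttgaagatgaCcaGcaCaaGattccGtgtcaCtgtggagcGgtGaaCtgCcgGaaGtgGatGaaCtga
Kmt2d end: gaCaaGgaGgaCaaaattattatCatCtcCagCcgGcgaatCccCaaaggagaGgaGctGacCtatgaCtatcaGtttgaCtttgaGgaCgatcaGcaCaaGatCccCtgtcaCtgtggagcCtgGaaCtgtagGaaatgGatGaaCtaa
The 2 stretches shared 117 of 150 bases (78%), and 19 of the 33 differences fell on a last codon position. At this end the genes were alike in base composition, with a GC content of 46.7% in Kmt2c and 47.3% in Kmt2d and with 31 and 33 of 50 last codon positions a G or C. Over the whole coding sequence they were not, since GC was 47.3% in Kmt2c and 59.4% in Kmt2d, and 39.8% and 59.9% at last codon positions.

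The 250 bases before the start of each gene, from RefSeq (GRCm38.p6, minus strand; chr5:25498784-25499033 for Kmt2c and chr15:98871206-98871455 for Kmt2d), are shown next, since the data differ between the genes these promoters serve. Capitals mark the GC box GGGCGG, to which the SP family of factors binds, on either strand, with every position counted even where matches overlap.
Kmt2c promoter: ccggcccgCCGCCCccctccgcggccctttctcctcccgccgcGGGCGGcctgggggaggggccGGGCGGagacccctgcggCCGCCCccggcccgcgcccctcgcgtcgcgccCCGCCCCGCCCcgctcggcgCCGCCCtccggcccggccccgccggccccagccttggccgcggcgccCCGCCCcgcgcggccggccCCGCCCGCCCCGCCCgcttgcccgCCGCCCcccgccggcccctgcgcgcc
Kmt2d promoter: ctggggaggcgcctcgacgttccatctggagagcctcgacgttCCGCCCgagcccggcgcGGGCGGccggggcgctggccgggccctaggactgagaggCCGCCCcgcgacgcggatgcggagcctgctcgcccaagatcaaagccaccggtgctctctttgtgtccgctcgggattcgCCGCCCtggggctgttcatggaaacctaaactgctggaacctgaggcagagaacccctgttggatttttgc
The window of Kmt2c held 12 GC boxes and a GC content of 91.6%, and that of Kmt2d held 4 GC boxes and 67.6%. Windows were found for 30 of the 38 genes, 37 windows in all with alternative starts. A GC box was present in 28 of these 37 windows (75.7%) and in 32.7% of all 32851 windows. The median GC content was 67.6% for the methyltransferase windows and 52.4% for all windows, and its part in these shares was not tested. The windows of Prmt8 overlap each other, as do those of Setd3, and each was counted. The ETS motif CCGGAAG occurred in 16.2% of the methyltransferase windows and 6.91% of all windows on either strand, and the CCAAT box in 37.8% and 33.8%. The window of Kmt2a held 4 GC boxes, that of Setd1a 0 and that of Setd2 7, and a relation between their number and the change was not tested.

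Among long genes the change went with GC content over the whole transcriptome, and several of the H3K4 genes are both long and GC-rich. All tested genes were put in classes by merged exon length and by the GC content of their longest transcript. In the 192 genes with over 8000 bases of exon and a GC content of 55% or more, the median change was 0.45 and 35.9% had a change of at least 1.5-fold upwards. In the 776 genes of the same length with a GC content under 45%, the median change was 0.03 and 3.09% had such a change. Kmt2d (19931 bases, GC 58.4%), Kmt2b (9596 bases, 59.1%), Setd1b (12068 bases, 59.0%) and Dot1l (8705 bases, 57.5%) are in the first class. The change of Kmt2d was above that of 96.4% of its class, that of Kmt2b above 90.6%, that of Setd1b above 77.1% and that of Dot1l above 57.3%. Kmt2c is the longest of all 38 genes (20291 bases) but has a GC content of 47.6%, and its change was above that of 28.9% of its own class. Once a trend on length and GC, fitted over the tested genes outside the family, was removed, 0 of the 38 genes had a change of at least 1.5-fold upwards, where 8.8% of all tested genes did, and 0 had one downwards, where 4.37% did. The change was then 0.48 for Kmt2b, 0.35 for Kmt2d, 0.32 for Setd1a, 0.27 for Kmt2a, 0.14 for Setd1b and -0.23 for Kmt2c, with a median of 0.30 for the group. This removal was chosen after the data had been seen, and the part of length and base composition in the differences was not tested.

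**Figure D3:**
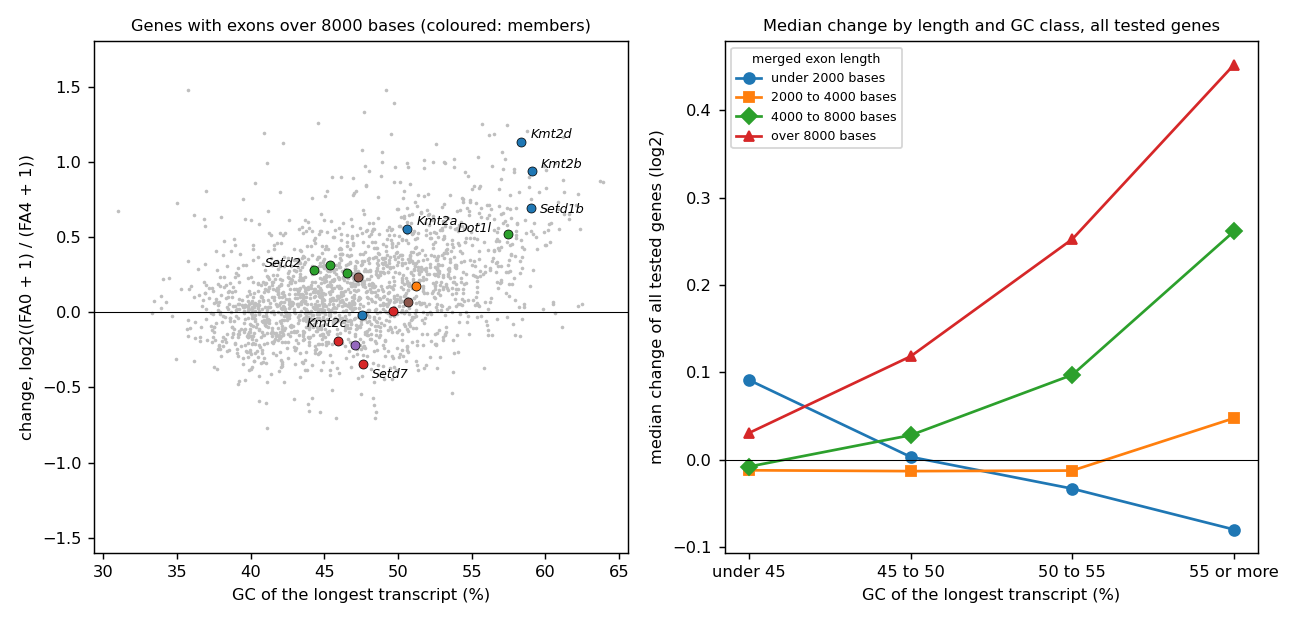
On the left, the change (vertical axis, log2) of the tested genes with over 8000 bases of exon against GC content of the longest transcript (horizontal axis, percent), with other genes in grey and the 16 methyltransferase genes of that length coloured by role. On the right, the median change of all tested genes by GC class, 1 line per class of exon length. The line for genes over 8000 bases goes from 0.03 under 45% GC to 0.45 at 55% or more, and Kmt2d, Kmt2b, Setd1b and Dot1l sit at its GC-rich end.

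Within the family the change also went with GC content among the long genes. Over the 16 methyltransferase genes with more than 8000 bases of exon, Pearson's r between GC content and change was 0.76 and Spearman's rho 0.50. Over the 1984 tested genes of that length they were 0.40 and 0.40. Without the limit on length they were 0.42 and 0.33 over the 38 genes and 0.05 and 0.06 over 14325 tested genes, among which short genes showed no such rise with GC. These are descriptions across genes of the same 2 libraries, in which genes are not independent replicates. In 8 pairs of paralogues, picked after their values were seen, the copy with the higher GC content had the more positive change in 7. Because of that choice the count is no measure of the relation. Prmt1 and Prmt8, counted among the 7, hardly differed in GC content (54.7% and 55.2%). The exception among the 8 was the Suv39h pair, in which Suv39h1 (GC 49.97%) was lower and Suv39h2 (43.0%) higher in FA0. Smyd2 (GC 53.6%, change -0.33) and Smyd3 (47.0%, -0.22), not among the pairs, also went the other way. With the trend removed, the change of Kmt2d still exceeded that of Kmt2c by 0.58 and that of Setdb1 exceeded that of Setdb2 by 0.71, while Setd1b came to lie 0.19 below Setd1a (a difference of -0.19).

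**Figure D4:**
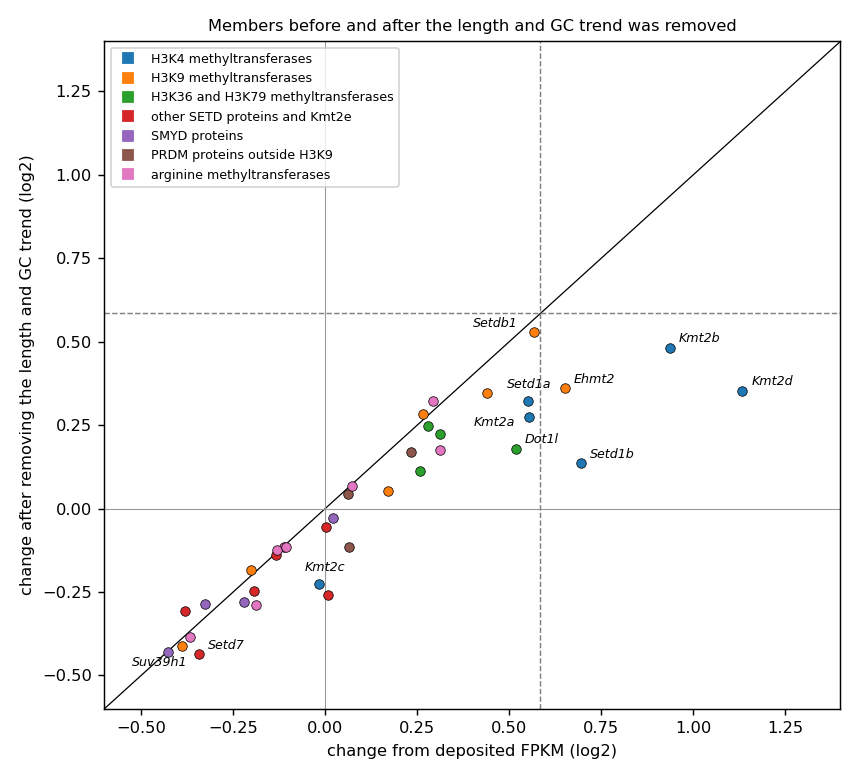
Change of each of the 38 genes from the deposited FPKM (horizontal axis, log2) against its change after a cubic trend on exon length and GC content was removed (vertical axis, log2), coloured by role. The diagonal marks no difference and the dashed lines the 1.5-fold limit of 0.58. Kmt2d moves from 1.13 to 0.35 and Setd1b from 0.69 to 0.14, while Setdb1 stays near the diagonal at 0.57 and 0.53.

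The H3K9 methyltransferases were mixed. The product of Setdb1 (chromosome 3, 95323525 to 95357202 on the minus strand) silences endogenous retroviruses in mouse embryonic stem cells together with TRIM28. Setdb1 was measured at 22.1 FPKM in FA4 against 33.3 in FA0, from 2852 and 4038 reads, a ratio of 1.504 (1.43 to 1.58). Its GC content of 48.3% and length of 6853 bases put it in a class with a median change of 0.03, and its change of 0.57 was above that of 94.3% of that class. Removal of the length and GC trend left 0.53, the highest value of the 38 genes. Ehmt2 (chromosome 17, 34898469 to 34914052 on the plus strand), the gene of G9a, stood at 14.3 FPKM in FA4 and at 23.0 in FA0, a ratio of 1.61 (1.51 to 1.72). G9a works as a dimer with GLP, encoded by Ehmt1, and places H3K9 mono- and dimethylation. Ehmt1 was at 9.50 FPKM in FA4 and at 10.8 in FA0, a ratio of 1.14 (1.06 to 1.22), and the intervals of the dimer's genes did not overlap. Prdm2, the gene of RIZ, which has a PR domain, was measured at 10.3 FPKM in FA4 against 14.3 in FA0, a ratio of 1.39 (1.298 to 1.49).

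Suv39h1 and Suv39h2 encode the enzymes that trimethylate H3K9 at pericentric heterochromatin. Suv39h1 stood at 5.85 FPKM in FA4 and at 4.23 in FA0, 1.38-fold lower, and Suv39h2 had 7.66 and 9.40, 1.23-fold higher (1.10 to 1.37). The ratio of Suv39h1 was 0.723 (0.635 to 0.824), and 14.6% of its exon bases overlap Gm14820 on the opposite strand, which had 266 reads in FA4 and 279 in FA0. Setdb2 was at 2.35 FPKM in FA4 and at 1.91 in FA0, and its interval of 0.646 to 1.02 included equal levels.

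All 4 genes placed in the H3K36 and H3K79 group were higher in FA0 beyond counting error, where 34.4% of all tested genes were. Nsd2 and Nsd3, relatives of Nsd1 listed with the other SET domain genes and not in this group, were not. Nsd2 was lower beyond counting error, with a ratio of 0.904 (0.824 to 0.992). Nsd3 was level, with a ratio of 1.05 (0.960 to 1.15). DOT1L is the H3K79 methyltransferase, and its gene was measured at 13.6 FPKM in FA4 against 19.8 in FA0, a ratio of 1.46 (1.39 to 1.55). Setd2, whose product trimethylates H3K36 behind RNA polymerase II, stood at 11.5 FPKM in FA4 and at 14.1 in FA0, a ratio of 1.23 (1.16 to 1.303). The H3K36 dimethyltransferase genes Nsd1 and Ash1l had ratios of 1.21 (1.16 to 1.26) and 1.33 (1.21 to 1.46), with an FPKM of 13.4 and 16.2 for Nsd1 and of 2.82 and 3.74 for Ash1l in FA4 and FA0. Setd2, Nsd1 and Ash1l are long genes of low GC content (44.3% to 46.5%), and their changes of 0.26 to 0.31 lay above those of 68.0% to 84.9% of their classes. The change of Dot1l, 0.52, was 0.18 once the trend was removed.

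The other SETD proteins and Kmt2e include enzymes with targets outside histones. Setd6, whose product methylates the NF-kB subunit RelA, was at 26.0 FPKM in FA4 and at 19.7 in FA0, a ratio of 0.759 (0.686 to 0.839). Setd7, whose product monomethylates H3K4 and proteins such as p53, was measured at 2.46 FPKM in FA4 against 1.73 in FA0. It was 1.42-fold lower, the lowest ratio of the 38 genes at 0.703 (0.610 to 0.810). Setd3, the gene of the actin histidine methyltransferase, stood at 14.9 FPKM in FA4 and at 13.5 in FA0, a ratio of 0.905 (0.843 to 0.971). Kmt2e, the gene of MLL5, a protein with a SET domain but without the H3K4 activity of its namesakes, was at 4.13 FPKM in FA4 and at 3.49 in FA0, a ratio of 0.845 (0.761 to 0.938). Setd5, a relative of Kmt2e, was level at 12.0 in FA4 and 12.1 in FA0, and Setd4 at 4.10 and 4.11. None of these 6 genes was higher beyond counting error, where 34.4% of all tested genes were. Kmt2e, Setd5 and Setd7 each have over 8000 bases of exon.

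The SMYD genes encode SET domains split by a MYND zinc finger. Of these genes, 3 of 4 were lower in FA0 beyond counting error, where 25.9% of all tested genes were. Smyd2, whose product methylates p53, was measured at 10.7 FPKM in FA4 against 8.29 in FA0, a ratio of 0.778 (0.682 to 0.887). Smyd3 stood at 3.88 FPKM in FA4 and at 3.19 in FA0, a ratio of 0.821 (0.731 to 0.922). Smyd4 was at 13.0 FPKM in FA4 and at 9.45 in FA0, with the most negative change of the family at -0.43. Smyd5 was level at 20.3 in FA4 and 20.6 in FA0. The exons of Smyd2 overlap those of Gm37422 on the opposite strand by 30.0%, and Gm37422 had 64 reads in FA4 and 86 in FA0. The PR domain and zinc finger genes outside the H3K9 group differed little. Prdm10 was measured at 2.26 FPKM in FA4 against 2.84 in FA0, a ratio of 1.25 (1.09 to 1.44). Prdm15, which mouse embryonic stem cells use to hold naive pluripotency, had 1.45 and 1.56, and Prdm4 had 10.8 and 11.3, and both intervals included equal levels.

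Among the 8 arginine methyltransferase genes, 5 were lower beyond counting error, 2 were higher and 1 was level. Of all tested genes, 25.9% were lower beyond counting error and 34.4% were higher. Prmt1, the gene of the main enzyme of asymmetric dimethylation, stood at 102 FPKM in FA4 and at 94.1 in FA0, a ratio of 0.924 (0.892 to 0.958). Prmt5, whose product makes symmetric dimethylarginine and is needed for pluripotent cells of the mouse embryo, was at 33.0 FPKM in FA4 and at 30.5 in FA0, a ratio of 0.926 (0.873 to 0.982). Prmt7, the gene of the monomethylating enzyme, was measured at 18.4 FPKM in FA4 against 16.0 in FA0, a ratio of 0.871 (0.817 to 0.929). Prmt3, whose product methylates a protein of the small ribosomal subunit, stood at 14.2 FPKM in FA4 and at 12.9 in FA0. The lowest ratio of the group, 0.738 (0.631 to 0.863), was that of Prmt2, at 6.24 in FA4 and 4.61 in FA0. On the higher side were Carm1, whose product methylates H3R17 as a coactivator, and Prmt8, a gene best known from neurons. Carm1 was at 14.6 FPKM in FA4 and at 18.3 in FA0, a ratio of 1.26 (1.17 to 1.35), and 21.1% of its exon bases overlap Yipf2 on the opposite strand, which had a change of 0.39. Prmt8 was measured at 2.42 FPKM in FA4 against 3.19 in FA0 from 124 and 154 reads, and its interval of 1.03 to 1.68 was the widest of the group. Prmt6, which encodes the enzyme of H3R2, had 362 reads in each library, which gave 4.59 FPKM in FA4 and 4.87 in FA0 and an interval of 0.916 to 1.23.

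The partners of these enzymes were looked up to see whether whole complexes differed in the same way. Of all tested genes, 10.2% had a change of at least 1.5-fold upwards and 4.5% one downwards. The lists are short, so the counts below are no result about a list. Of the 15 subunits of COMPASS that were tested, 0 had a change of at least 1.5-fold either way, and their median change was -0.05 (0.02 after rescaling to TPM). The WD-repeat subunit gene Rbbp5, which belongs to the core shared by all 6 enzymes, stood at 59.2 FPKM in FA4 and at 41.0 in FA0, a change of -0.52. Hcfc2 had a change of -0.40 and Paxip1, whose product belongs to the KMT2C and KMT2D complexes, one of 0.31. Of the 13 partners and readers of the H3K9 enzymes 0 were 1.5-fold apart, with a median change of 0.02, and the largest changes were 0.34 for Atf7ip, the partner of SETDB1, 0.34 for Cdyl and 0.31 for Wiz. Of 6 partners of DOT1L, Aff1 was at 12.7 FPKM in FA4 and at 25.7 in FA0, a ratio of 2.03 (1.93 to 2.14), and was the 1 gene with a change of at least 1.5-fold upwards. Mllt1 had a plain ratio of 1.52 but a change of 0.56, just under the limit, and Mllt6 had a change of 0.44, and the median of the list was 0.32. Of 10 partners and readers of H3K36 methylation, 2 had a change of at least 1.5-fold upwards. Phf19, whose Tudor domain binds methylated H3K36, was measured at 2.36 FPKM in FA4 against 7.08 in FA0, a ratio of 3.00 (2.57 to 3.51), and its relative Phf1 had a change of 0.64, with Iws1 next at 0.46. Of 9 partners of the arginine enzymes, 0 were 1.5-fold apart and the median change was -0.10, with Clns1a, which brings PRMT5 to the spliceosomal Sm proteins, at -0.45, Smn1 at -0.38 and Btg2 at 0.45.

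Methyltransferases outside the 38 genes were level in part. The counting interval included equal levels for 4 of 7 other SET domain genes, 3 of 6 PRDM genes and 8 of 13 small protein methyltransferases. Of all tested genes, 10.2% had a change of at least 1.5-fold upwards and 4.5% one downwards. Of 7 other SET domain genes the median change was 0.03, and Smyd1, a gene best known from muscle, was the 1 with a change of at least 1.5-fold upwards, at 8.05 FPKM in FA4 against 15.0 in FA0, while Setmar had a change of -0.29 and Kmt5b one of 0.19. Of 6 tested PRDM genes outside the family 0 were 1.5-fold apart, and the largest changes were 0.28 for Prdm1, 0.16 for Prdm11 and -0.14 for Prdm14. Of 13 tested genes of small protein methyltransferases with the same fold as the arginine enzymes, 1 had a change of at least 1.5-fold downwards and the median change was -0.11. That gene was Camkmt, the calmodulin lysine methyltransferase, at 13.9 FPKM in FA4 against 8.08 in FA0, followed by Mettl23, which was 1.63-fold lower by the plain ratio but had a change of -0.58, just short of the limit, and Eef1akmt2 with one of -0.42. Of the 13, 5 were lower beyond counting error and 0 higher, where 25.9% and 34.4% of all tested genes were. The catalytic subunits of PRC2, the H3K27 methyltransferase, had changes of -0.01 for Ezh1 and 0.07 for Ezh2. Of the genes that make SAM and remove its product, Mat2a, which encodes the SAM synthetase of most tissues, stood at 72.4 FPKM in FA4 and at 109 in FA0, a ratio of 1.51 (1.46 to 1.56). Its regulatory partner Mat2b had a change of 0.01, and Ahcy, Ahcyl1 and Ahcyl2, the genes of S-adenosylhomocysteine hydrolase and its relatives, had changes of -0.25, 0.00 and -0.15.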

How the data were processed

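RNA-seq of FA4 and FA0, with 1 library each, was analysed, and the other assays of the study were not used here. Per the file headers and the study's methods, the deposited values are FPKM per Ensembl gene, which the authors calculated from reads aligned to mm10 and scaled within each library. In the submitters' processing notes the tools are StringTie 1.3.3b, HISAT2 2.1.0 and DESeq 1.28.0, and Tophat and limma are added by the study's methods. Settings for strand and for multi-mapped reads are not stated.

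Changes were calculated with a pseudocount of 1, which understates the change of low genes. Reads were recovered by multiplying FPKM by merged exon length (GENCODE M21, GRCm38) and the fitted scaling totals, 18807034 for FA4 and 17704766 for FA0. Among values of up to 20 reads, the share within 0.05 of a whole read was 97.9% for FA4 and 98.1% for FA0. Why the reads summed over genes are more than these totals was not tested. No length was found for 39 of the 28839 genes. The annotated positions of all 38 genes were the same in the deposited table and in GENCODE M21. Intervals for the ratio are Clopper-Pearson at 95%.

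The 38 genes and the partner and marker lists were chosen with earlier results of these data known. All 38 are named, and from each partner list the 3 tested genes with the largest change in size (all tested genes of lists of 5 or fewer). Nsd2 and Nsd3, which are outside the 38 genes, were named in addition, after their values were seen. Marker lists are given as sums, with some but not all single markers named beside them. Genes that overlap a methyltransferase gene are named by position. Alternatives were pseudocounts of 0.1 and 0.5, a minimum FPKM of 5 or none, FA0 rescaled by a median ratio over 7744 genes, both libraries rescaled to TPM, and removal of a cubic trend on exon length. Removal of a trend on length and GC, and on length, GC and level, was added after seeing the data. The scripts were tested on simulated data. Promoter windows come from RefSeq and were matched by symbol. Python 3.11.15 with pandas 2.3.3, numpy 2.4.6, scipy 1.17.1 and matplotlib 3.10.9 was used.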

Additional observations from a re-analysis of the deposited data

How the results depend on the processing

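With 1 library per condition no library could be left out. No paired analysis was possible because each condition has 1 library. The number of the 38 genes at least 1.5-fold higher was 7 with a pseudocount of 0.1 and 8 after rescaling to TPM, beside 4, and the number at least 2-fold higher was 2 after rescaling to TPM, beside 1. In the main setting 10.2% and 2.99% of all tested genes passed these limits, and by the plain ratio 15.9% and 7.31% did. Among the alternatives, such a share is given here only for the length and GC removal (8.8% at least 1.5-fold higher). The larger counts are therefore no result about the 38 genes. With TPM the minimum and the pseudocount of 1 were applied to TPM values, so 18809 genes counted as tested, beside 14345. The median change of all tested genes was then 0.15, beside 0.05. The parts of scaling, minimum and pseudocount in the values after rescaling to TPM were not separated. TPM was the 1 scaling under which Kmt2c changed sign. The median change of the H3K4 group was 0.80 with the pseudocount of 0.1 and 0.81 after rescaling to TPM, beside 0.62. Removal of the length trend left 0 genes at least 2-fold higher and kept 3 of the 4 at 1.5-fold. Removal of the length and GC trend left 0 genes at either limit and a median of 0.30 for the H3K4 group, and with level added it left 0 at either limit and a median of 0.29. The median of the H3K36 and H3K79 group was 0.16 without the length trend, beside 0.30, and that of the arginine group was -0.03 after rescaling to TPM, beside -0.11. Under the removals of these trends Prdm15, Setd4, Setd5 and Smyd5, all with counting intervals that include equal levels, changed sign. A minimum FPKM of 5 left 27 of the 38 genes tested. Under no alternative was any of the 38 genes at least 1.5-fold lower. The lowest genes rest on few reads, down to 124 for Prmt8 in FA4, and the intervals widen accordingly.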

Other observations

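The relation of the change to GC content over all tested genes differed with exon length. In genes of under 2000 bases the median change went from 0.09 with a GC content under 45% to -0.08 with 55% or more. In genes of 4000 to 8000 bases it went from -0.01 to 0.26. The trend on length and GC took up 5.43% of the variance of the change over 14287 genes outside the family, and that on length alone 2.07%. Among the 38 methyltransferase genes, 10 had a GC content of 55% or more, and their median change was 0.53, beside 0.11 for all 3192 tested genes of that GC class. At the last position of codons Prmt6 had the highest GC content of the family, 82.8%, and was level in FA0, while Setd2 had the lowest, 37.3%, and a change of 0.28.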
